A study of Mus musculus with 9 samples.

Results

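The genes described here are 10 cyclins and cyclin-dependent kinases (CDKs) of mouse, chosen by their symbols in the deposited table, where all 10 were found among 56691 genes. They are the D-type cyclins Ccnd1, Ccnd2 and Ccnd3, the E-type cyclins Ccne1 and Ccne2, the A- and B-type cyclins Ccna2, Ccnb1 and Ccnb2, and the kinases Cdk1 and Cdk4. RNA came from RAW264.7 cells, a mouse macrophage line that is used as an osteoclast precursor in culture. There were 3 groups with 3 libraries in each: untreated cells (control), cells given RANKL, the cytokine that drives osteoclast formation (RANKL), and cells given RANKL together with the nucleoside uridine (RANKL + UD). All cells were harvested after 3 days. The uridine dose of these libraries is not given in the sources used here, and every library comes from this single cell line, so the values hold for that line and that day.

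Cyclins are the regulatory subunits that switch on CDKs, and those of the E, A and B types are made and destroyed once per round of cell division. D-type cyclins act early, in G1, where they bind Cdk4 or Cdk6 and respond to growth signals, and the kinases they form phosphorylate the retinoblastoma family of pocket proteins, which releases E2F transcription factors. E-type cyclins with Cdk2 follow at the entry into S phase, cyclin A2 acts through S phase and G2, and the B-type cyclins with Cdk1 drive mitosis. In the macrophage lineage, precursors divide before they fuse, and mature osteoclasts are multinucleated cells that no longer divide.

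Most of the members were lower with RANKL and higher again with uridine. With RANKL, 7 of the 9 members that could be tested were lower than in control cells, where 30.2% of all tested genes were called lower, and the exceptions were Ccne2, which did not pass, and Cdk4, which was higher. With RANKL + UD, 8 of the 9 were higher than with RANKL, where 18.6% of all tested genes were called higher, and Cdk4 did not pass. The estimates among those 8 ran from 1.33-fold for Ccnd1 and 1.35-fold for Ccnd3 to 1.78-fold for Ccne2 and 1.87-fold for Ccne1, and differences between members were not tested. In bulk RNA of this kind, fewer cells in a given phase of the cycle and less RNA per cell cannot be told apart.

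Genes of the late cell cycle are known to share short promoter elements, so the promoters of the mitotic members are shown beside that of Cdk4, whose difference between RANKL + UD and RANKL did not pass. Cdk4 was picked by that result, so a link between the words and the changes was not tested. The known elements are the CHR, searched here as TTTGAA, the CCAAT box, searched as CCAAT, and sites of the E2F type, searched as TTTCGCGC and TTTGGCGC, each on both strands. None of the 4 words overlapped another in the windows shown. RefSeq promoter sequences (build GRCm38.p6) were on hand for 6 of the 10 members and were not used for Ccna2, Ccnd1, Ccnd2 and Ccne2. Each window runs from 150 bases before the annotated transcription start to 20 bases after it, 170 bases in all, written 5′ to 3′ on the strand of the gene with every match in capitals. The windows are chr13:100786467-100786636 (minus strand) for Ccnb1, chr9:70421535-70421704 (minus strand) for Ccnb2, chr10:69352893-69353062 (minus strand) for Cdk1 and chr10:127063385-127063554 (plus strand) for Cdk4.
Ccnb1: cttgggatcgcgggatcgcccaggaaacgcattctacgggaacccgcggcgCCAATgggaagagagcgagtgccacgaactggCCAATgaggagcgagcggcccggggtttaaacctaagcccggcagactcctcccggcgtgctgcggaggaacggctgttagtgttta
Ccnb2: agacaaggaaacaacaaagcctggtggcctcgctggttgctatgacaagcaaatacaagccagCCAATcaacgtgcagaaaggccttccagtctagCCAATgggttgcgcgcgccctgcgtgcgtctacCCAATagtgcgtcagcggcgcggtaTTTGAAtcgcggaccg
Cdk1: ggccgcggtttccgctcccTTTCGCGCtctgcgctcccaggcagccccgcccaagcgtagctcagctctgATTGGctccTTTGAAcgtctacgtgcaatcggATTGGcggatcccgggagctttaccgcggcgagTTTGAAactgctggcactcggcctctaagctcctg
Cdk4: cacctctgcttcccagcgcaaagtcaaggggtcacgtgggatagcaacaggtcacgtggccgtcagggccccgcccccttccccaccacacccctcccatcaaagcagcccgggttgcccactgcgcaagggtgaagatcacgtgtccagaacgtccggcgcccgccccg

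The Ccnb1 window held CCAAT at 99 and 67 bases before the start and no TTTGAA. The Ccnb2 window held 3 CCAAT boxes, at 87, 54 and 21 bases before the start, and 1 TTTGAA just after it. The Cdk1 window held 2 CCAAT boxes on the opposite strand (written ATTGG), 80 and 48 bases before the start, TTTGAA at 71 and 15 bases before it, and TTTCGCGC at 131 bases before it. None of the 4 words was found in the Cdk4 window or in that of Ccne1, and the Ccnd3 windows held a single CCAAT. Ccne1 and Ccnd3 were nevertheless higher in RANKL + UD than in RANKL, by 1.87-fold and 1.35-fold. Among all 32851 promoter windows of the same length, 26.3% held CCAAT, 6.66% held it 2 or more times, 10.0% held TTTGAA and 0.186% held TTTCGCGC. TTTGAA together with 2 or more CCAAT, as in Ccnb2 and Cdk1, was found in 0.670% of windows. That combination describes those 2 windows and is absent from the Ccnb1 window, so its share is not a test of these promoters. Only these exact words were searched, so a window without a word may still hold the element in another spelling. These matches are a description of the letters in the windows and not a measurement of binding.

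Levels are given as FPKM, the number of reads on a gene scaled by its exonic length and by library depth, which allows genes of different length to be compared. Total counts were 15951800 to 19746862 per library with a median of 19182637. Differences are log2 fold changes from edgeR's quasi-likelihood test on the counts with TMM scaling of the libraries. Their standard error (SE) was taken as the absolute log2 fold change divided by the square root of the test's F statistic. FPKM lacks TMM scaling, whose factors were 0.959 to 0.962 for RANKL and 1.01 to 1.03 for the other groups. Levels, sums and ranges in FPKM therefore place RANKL lower beside the other groups than the tests do. Adjusted p is from the Benjamini-Hochberg method over the 11995 genes that reached 1 FPKM in at least 3 libraries. A gene is called higher or lower at an adjusted p under 0.05. The labels name each library as a replicate biosample, and nothing says whether the cultures were separate, so p-values measure the spread between these libraries. Osteoclast markers, 9 genes such as Acp5 and Ctsk, summed to 46.9 to 50.1 FPKM in control libraries, 2641 to 2844 FPKM with RANKL and 1666 to 1703 FPKM with RANKL + UD, and Calcr was under 1 FPKM in every library. Macrophage markers, 10 genes such as Adgre1 and Csf1r, summed to 9969 to 10555, 2632 to 2869 and 2341 to 2476 FPKM in the same order. That sum was mostly Lyz2, with means of 7999.7, 1431 and 1285 FPKM, and its genes did not all move with it. Of 9 tested, 8 were lower and Cd68 was higher with RANKL, beside 30.2% and 27.3% of all tested genes. In RANKL + UD against RANKL 5 were lower and Adgre1 and Cybb were higher, beside 20.2% and 18.6%. The share higher in that comparison, 22.2%, was close to the background. Markers of B cells, T cells, fibroblasts and osteoblasts, neutrophils and epithelia summed to at most 1.81 FPKM per list in any library. The part of these shifts in cell state in the cyclin values was not tested.

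**Figure D1:**
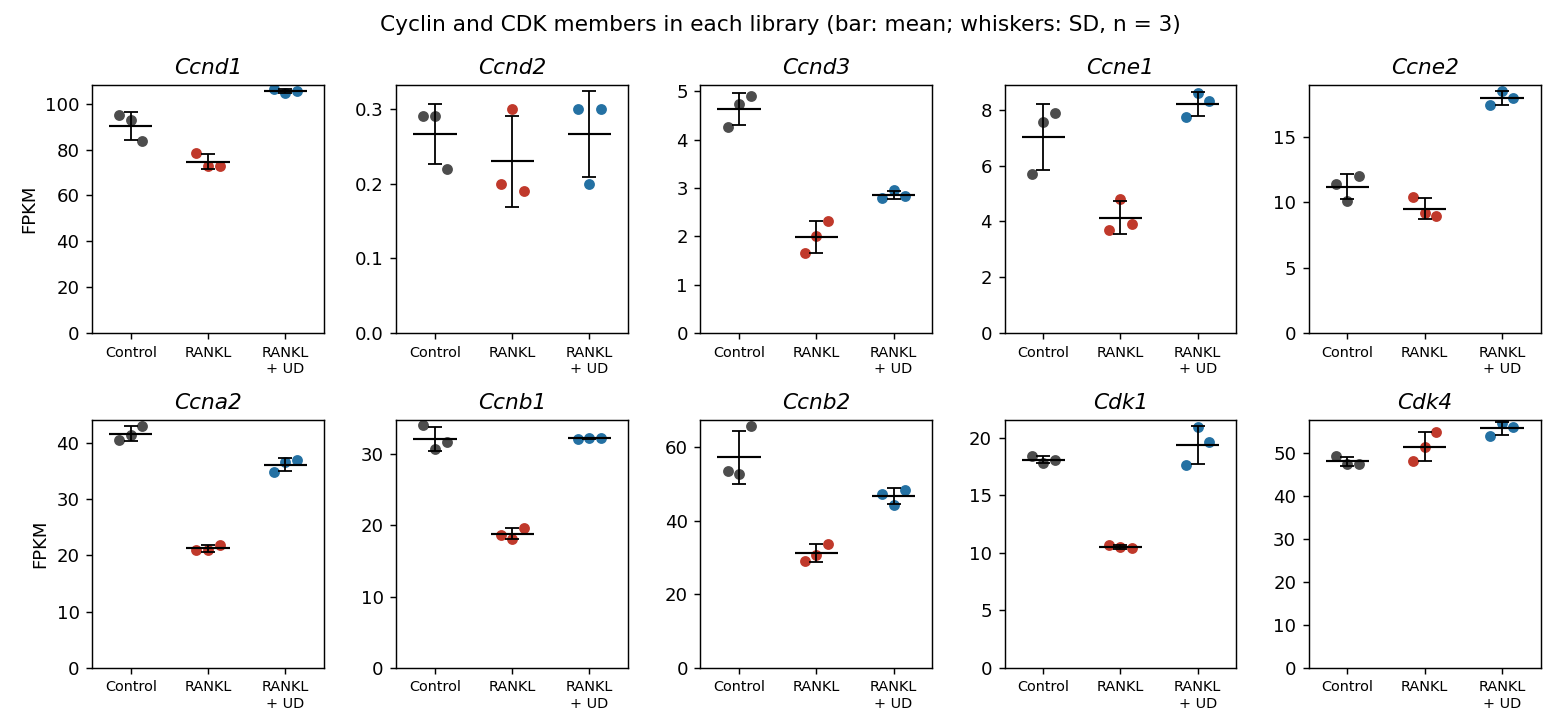
Level of each of the 10 members in the 9 libraries, in FPKM on an axis that starts at 0, with 1 point per library, a bar at the mean and whiskers of 1 SD over 3 libraries. In the panels of Ccnd1, Ccnd3, Ccne1, Ccna2, Ccnb1, Ccnb2 and Cdk1 the RANKL points lie below all control and all RANKL + UD points.

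Ccnd1 (ENSMUSG00000070348, chromosome 7) encodes cyclin D1, the growth-factor-responsive partner of Cdk4 and Cdk6, and was the most abundant member in all 3 groups. Its level was 94.9, 92.8 and 83.6 FPKM in the control libraries, 78.4, 72.7 and 72.9 FPKM with RANKL, and 106, 105 and 106 FPKM with RANKL + UD. The 3 groups did not overlap, and RANKL + UD stood above both others. With RANKL, Ccnd1 was lower than in control by 1.14-fold (log2 fold change -0.19, SE 0.052, adjusted p = 0.00401). Against RANKL, the RANKL + UD libraries were higher by 0.41 (SE 0.052, adjusted p = 2.35e-06), and against control they were also higher, by 0.22 (SE 0.052, adjusted p = 0.00104). LTO1 overlaps Ccnd1 on the opposite strand by 1771 bases, with a mean of 258.6 reads against 7708, and the strand limit given below for Ccnd3 applies.

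Ccnd3 (ENSMUSG00000034165, chromosome 17) encodes cyclin D3, which is widely used in blood cell lineages. It was at 4.27, 4.73 and 4.91 FPKM in control libraries, 1.66, 2.00 and 2.32 FPKM with RANKL and 2.79, 2.95 and 2.84 FPKM with RANKL + UD. No group overlapped another, and the order was control, then RANKL + UD, then RANKL. The fall with RANKL was the largest of any tested member, 2.19-fold (log2 fold change -1.13, SE 0.10, adjusted p = 5.03e-09). With uridine it rose by 0.43 over RANKL (SE 0.11, adjusted p = 0.00252) and was still below control (log2 fold change -0.70, SE 0.10, adjusted p = 4.56e-06). Ccnd3 overlaps Bysl on the opposite strand by 361 bases in the table, and the 2 genes had similar mean counts, 498.7 for Ccnd3 and 640.6 for Bysl. All overlaps given are of whole gene spans, introns included, and the exonic part was not measured. Bysl moved less, by -0.26 with RANKL (adjusted p = 0.0261) and by 0.20 with uridine (adjusted p = 0.106). The library kit marks strand, but the sources used here do not say whether counting used it, and without it reads from any shared exonic bases cannot be assigned.

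Ccnd2 (ENSMUSG00000000184, chromosome 6), the third D-type cyclin, was close to the limit of detection. It was at 0.29, 0.29 and 0.22 FPKM in control libraries, 0.20, 0.30 and 0.19 FPKM with RANKL, and 0.30, 0.20 and 0.30 FPKM with RANKL + UD, which is 31 to 56 reads per library. The groups overlapped in every comparison. Ccnd2 did not reach the filter and was fitted only without it, where its log2 fold changes were -0.095 for RANKL against control, 0.13 for RANKL + UD against RANKL and 0.033 for RANKL + UD against control, with adjusted p of 0.872, 0.857 and 1.0.

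As a family, the D-type cyclins were nearly all Ccnd1. Summed over the 3 genes, they were at 95.3 ± 5.81 FPKM in control (SD, n = 3), 76.9 ± 2.91 FPKM with RANKL and 109 ± 0.920 FPKM with RANKL + UD. Ccnd3 made up 4.89% ± 0.623 of that sum in control, 2.60% ± 0.507 with RANKL and 2.63% ± 0.0976 after RANKL + UD (SD, n = 3). The lowest control share, 4.29%, lay above the highest share in either other group, 3.08% with RANKL, whereas the RANKL and RANKL + UD shares overlapped. The level of Ccnd1 was 19.6 times that of Ccnd3 in control, 38.3 times with RANKL and 36.9 times with RANKL + UD. These shares depend on the exonic lengths in the table and were not tested.

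Ccne1 (ENSMUSG00000002068, chromosome 7) encodes cyclin E1, a classical E2F target that activates Cdk2 at the start of DNA replication. It was at 5.69, 7.55 and 7.89 FPKM in control libraries, 3.70, 4.80 and 3.90 FPKM with RANKL, and 7.76, 8.59 and 8.31 FPKM with RANKL + UD. Every RANKL library lay below every other library, and the RANKL + UD range overlapped the upper end of control. Ccne1 was lower with RANKL than in control by 1.60-fold (log2 fold change -0.68, SE 0.13, adjusted p = 0.000102). It was higher with RANKL + UD than with RANKL by 0.90 (SE 0.13, adjusted p = 8.08e-06). Against control the RANKL + UD value was 0.22 (SE 0.12, adjusted p = 0.13), which did not pass.

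Ccne2 (ENSMUSG00000028212, chromosome 4) encodes cyclin E2 and was the more abundant E-type cyclin in every library. Its level was 11.4, 10.1 and 12.0 FPKM in control libraries, 10.4, 9.19 and 8.90 FPKM with RANKL, and 17.4, 18.4 and 18.0 FPKM with RANKL + UD. Control and RANKL overlapped, and RANKL + UD was far above both. The difference between RANKL and control was -0.14 (SE 0.081, adjusted p = 0.134) and did not pass. It passed without control replicate 2 (-0.22, adjusted p = 0.0377), without RANKL replicate 1 (-0.22, adjusted p = 0.0401), and with libraries scaled by total counts alone (-0.23, adjusted p = 0.0174). RANKL + UD was higher than RANKL by 0.83 (SE 0.079, adjusted p = 4.79e-08) and higher than control by 0.69 (SE 0.078, adjusted p = 2.04e-07). Ccne2 overlaps Ints8 on the opposite strand by 5622 bases of gene span, more than the 3495 exonic bases of Ccne2. Ints8 had a mean of 1003 reads against 811.6 for Ccne2. Ints8 changed by 0.21 with RANKL (adjusted p = 0.00639) and by 0.09 with uridine (adjusted p = 0.273), so the strand limit applies here too.

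Together the E-type cyclins summed to 18.2 ± 1.49 FPKM in control, 13.6 ± 0.721 FPKM with RANKL and 26.2 ± 0.935 FPKM with RANKL + UD (SD, n = 3). The lowest RANKL + UD library, at 25.2 FPKM, stood above the highest control library, at 19.9 FPKM. The ratio of Ccne2 to Ccne1 was 1.34 to 2.00 in control libraries, 1.91 to 2.81 with RANKL and 2.15 to 2.24 with RANKL + UD, so that the control range overlapped that of RANKL and not that of RANKL + UD.

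**Figure D2:**
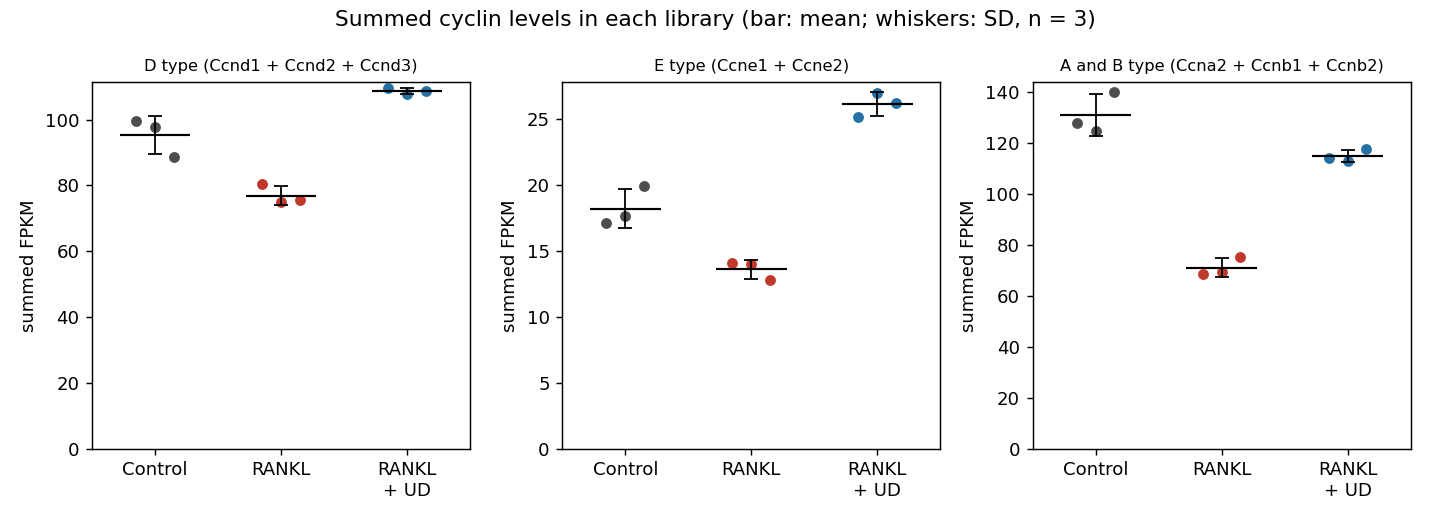
Summed level of the D-type, E-type, and A- and B-type cyclins in each of the 9 libraries, in FPKM, with a bar at the mean and whiskers of 1 SD over 3 libraries. For D- and E-type cyclins RANKL + UD is the highest group, and for A- and B-type cyclins control is the highest.

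Ccna2 (ENSMUSG00000027715, chromosome 3) encodes cyclin A2, which accompanies DNA replication and the approach to mitosis. Its level was 40.5, 41.5 and 43.1 FPKM in control libraries, 20.9, 20.9 and 21.9 FPKM with RANKL, and 34.9, 36.6 and 37.0 FPKM with RANKL + UD. The 3 groups were well apart, with RANKL lowest and control highest. The fall with RANKL was 1.84-fold (log2 fold change -0.88, SE 0.050, adjusted p = 2.14e-12). With uridine it rose by 0.68 over RANKL (SE 0.050, adjusted p = 1.42e-09), and it was still below control (log2 fold change -0.20, SE 0.049, adjusted p = 0.00133). Exosc9 overlaps Ccna2 on the opposite strand by 863 bases, with a mean of 909.4 reads against 2426.

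Ccnb1 (ENSMUSG00000041431, chromosome 13) encodes cyclin B1, the main mitotic partner of Cdk1. It was at 34.0, 30.7 and 31.7 FPKM in control libraries, 18.7, 18.1 and 19.6 FPKM with RANKL, and 32.1, 32.2 and 32.3 FPKM with RANKL + UD. The RANKL libraries lay below the rest, and the RANKL + UD libraries lay inside the control range. Ccnb1 was lower by 1.61-fold with RANKL (log2 fold change -0.69, SE 0.055, adjusted p = 6.47e-10) and higher by the same factor with RANKL + UD than with RANKL (log2 fold change 0.69, SE 0.055, adjusted p = 3.51e-09). The difference between RANKL + UD and control was 0.005 with an SE of 0.053 (adjusted p = 0.943).

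Ccnb2 (ENSMUSG00000032218, chromosome 9), which encodes the second B-type cyclin of dividing cells, was the higher of the B-type pair by FPKM. By read counts Ccnb1 was the higher in every library, so the order rests on their exonic lengths, 1531 bases for Ccnb2 and 4217 for Ccnb1. It was at 53.6, 52.7 and 65.6 FPKM in control libraries, 28.9, 30.6 and 33.8 FPKM with RANKL, and 47.3, 44.2 and 48.4 FPKM with RANKL + UD. The groups did not overlap, with control replicate 3 above the other control libraries. Ccnb2 fell with RANKL by 1.73-fold (log2 fold change -0.79, SE 0.080, adjusted p = 2.70e-08) and rose with uridine by 1.41-fold over RANKL (log2 fold change 0.50, SE 0.080, adjusted p = 4.52e-05). It stayed below control, at -0.29 (SE 0.078, adjusted p = 0.00324). The processed pseudogenes Ccnb1-ps and Ccnb2-ps had mean counts of 20.4 and 22.8, small beside their parents.

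Over both types, the A- and B-type cyclins summed to 131 ± 8.18 FPKM in control, 71.2 ± 3.65 FPKM with RANKL and 115 ± 2.43 FPKM with RANKL + UD (SD, n = 3). Measured against that sum, the D-type cyclins were at a ratio of 0.632 to 0.784 in control libraries, 1.00 to 1.17 with RANKL and 0.923 to 0.959 with RANKL + UD. The ratio of summed E-type cyclins to Ccna2 was 0.422 to 0.462 in control, 0.584 to 0.674 with RANKL and 0.710 to 0.738 with RANKL + UD. In both ratios the 3 groups were separate, with control lowest. The D-type sum was nearly all Ccnd1 and the E-type sum mostly Ccne2, so the D-type and E-type side of each ratio rests mainly on 1 gene. The log2 fold changes with RANKL of the other family members, -1.13 for Ccnd3 and -0.68 for Ccne1, were below or close to those of Ccna2, Ccnb1 and Ccnb2 (-0.88, -0.69 and -0.79).

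Cdk1 (ENSMUSG00000019942, chromosome 10) encodes the kinase of mitosis. Its level was 18.4, 17.8 and 18.0 FPKM in control libraries, 10.7, 10.5 and 10.4 FPKM with RANKL, and 17.6, 20.9 and 19.6 FPKM with RANKL + UD. The RANKL libraries were low and close together, and RANKL + UD overlapped control. Cdk1 was lower with RANKL by 1.62-fold (log2 fold change -0.70, SE 0.062, adjusted p = 3.48e-09) and higher with RANKL + UD than with RANKL by 1.74-fold (log2 fold change 0.80, SE 0.061, adjusted p = 2.45e-09). Against control, RANKL + UD gave 0.10 (SE 0.060, adjusted p = 0.165), which passed when RANKL + UD replicate 1 was left out (0.16, adjusted p = 0.0344).

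Cdk4 (ENSMUSG00000006728, chromosome 10) encodes the G1 kinase that D-type cyclins activate. It was at 49.2, 47.3 and 47.5 FPKM in control libraries, 48.1, 51.3 and 54.9 FPKM with RANKL, and 54.0, 57.0 and 56.0 FPKM with RANKL + UD. Each group overlapped the next, and only control and RANKL + UD were separate. RANKL + UD was higher than control by 0.21 (SE 0.052, adjusted p = 0.00157) and differed from RANKL by 0.03 (SE 0.052, adjusted p = 0.717). RANKL was higher than control by 0.19 (SE 0.052, adjusted p = 0.0045), a call that was lost with total counts as the only scaling (0.10, adjusted p = 0.117). The ratio of summed D-type cyclins to Cdk4 was 1.87 to 2.07 in control libraries, 1.37 to 1.67 with RANKL and 1.89 to 2.03 with RANKL + UD, so that RANKL stood below the other 2 groups, which overlapped. Tspan31 overlaps Cdk4 on the opposite strand by 641 bases, with a mean of 767.2 reads against 3057.

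**Figure D3:**
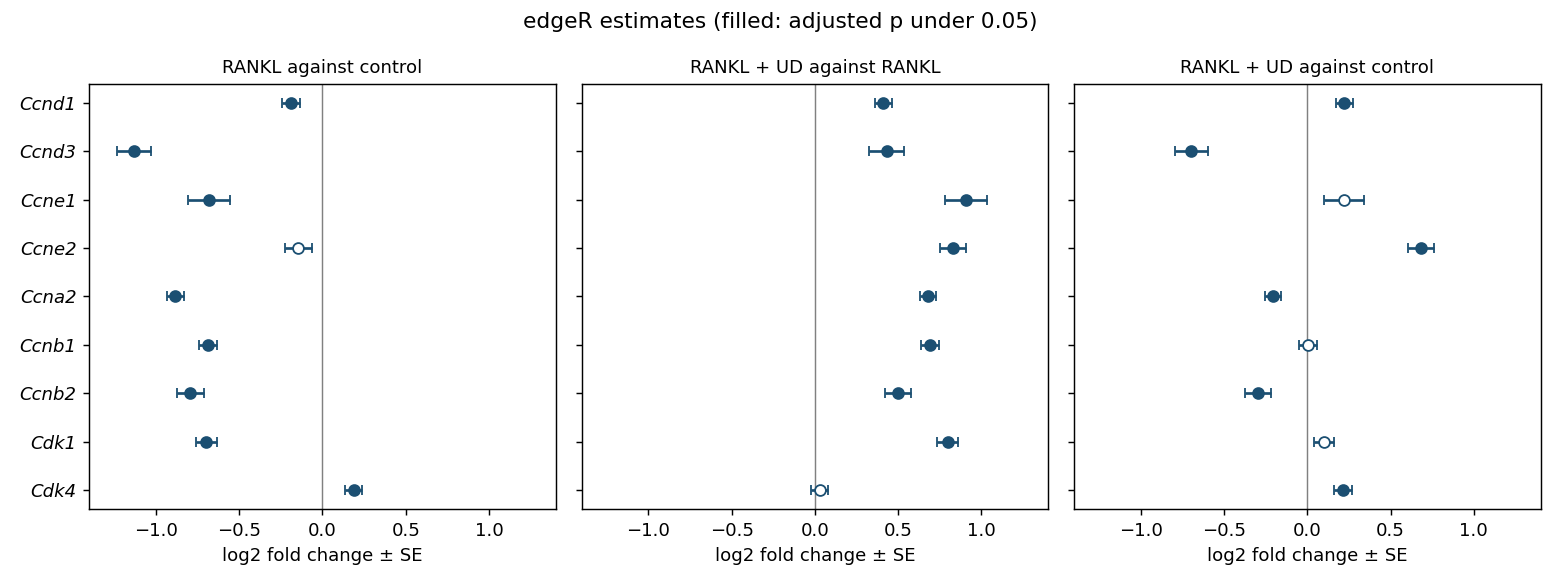
Log2 fold change of the 9 tested members in the 3 comparisons, with whiskers of 1 SE and filled points where the adjusted p is under 0.05. In RANKL + UD against RANKL 8 points lie right of 0 and pass, and Cdk4 sits at 0.03.

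Counted over the list, 7 tested members were lower and 1 was higher in RANKL against control, beside 30.2% and 27.3% of all tested genes. In RANKL + UD against RANKL, edgeR called 8 members higher and 0 lower, beside 18.6% and 20.2% of all tested genes. The counts were also 8 and 0 at an unadjusted p under 0.05, with DESeq2 and with limma. In RANKL + UD against control, 3 members were higher (Ccnd1, Ccne2 and Cdk4) and 3 were lower (Ccnd3, Ccna2 and Ccnb2), beside 26.7% and 27.3% of all tested genes, so these shares were close to the background. By FPKM ranges, RANKL was wholly below control in 7 tested members (38.8% of all tested genes), RANKL + UD was wholly above RANKL in 8 (34.1%), and RANKL + UD was wholly above control in 3 (29.5%) and wholly below it in 3 (30.4%). The median log2 fold change of the 9 members was -0.69, 0.68 and 0.10 in these 3 comparisons, against -0.03, 0.005 and -0.002 over all tested genes. The comparisons share libraries, so the first and the second are not independent of each other. The balance over all genes depended on scaling, since higher genes were 47.5% of calls in RANKL against control and 48.0% in RANKL + UD against RANKL, and 36.8% and 66.2% with total counts alone.

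Ordered by mean FPKM, the control libraries ran Ccnd1, Ccnb2, Cdk4, Ccna2, Ccnb1, Cdk1, Ccne2, Ccne1, Ccnd3 and Ccnd2, and no neighbours in that order overlapped. With RANKL and with RANKL + UD, Cdk4 stood above Ccnb2 and the rest of the order was the same. In both of these groups the ranges of Cdk1 and Ccne2 overlapped, so their order is not settled by 3 libraries, and no other neighbours did. The order depends on the exonic lengths in the table, and by read counts Ccnb1 stood above Ccnb2.

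Among the other cyclins and CDKs of the cycle, 8 of 10 genes were tested. With RANKL, 2 were higher and 4 lower, 25.0% and 50.0% beside 27.3% and 30.2% of all tested genes, and in RANKL + UD against RANKL 4 were higher and 2 lower, 50.0% and 25.0% beside 18.6% and 20.2%. Cdk6, the other kinase of D-type cyclins, moved in the opposite direction to most members, with 25.5 ± 2.29 FPKM in control, 42.9 ± 2.11 with RANKL and 38.8 ± 1.01 after RANKL + UD (SD, n = 3). Its log2 fold change was 0.84 with RANKL (SE 0.058, adjusted p = 7.28e-11) and -0.23 in RANKL + UD against RANKL (SE 0.058, adjusted p = 0.00317), and the second of these was lost with limma on log2(FPKM + 1) (-0.14, adjusted p = 0.153). The other gene that was higher with RANKL (0.18, adjusted p = 0.0477) and lower with uridine (-0.22, adjusted p = 0.0301) was Mnat1, a subunit of the kinase that activates CDKs, named after its values were seen. It did not pass with RANKL without control replicate 2 or 3, any 1 RANKL library or RANKL + UD replicate 3 (adjusted p from 0.0515 to 0.167), which left 1 gene higher. Mnat1 also did not pass with RANKL with total counts as the only scaling (0.095, adjusted p = 0.297) or with no filter on low values (adjusted p = 0.0518). The same held with limma on log2(FPKM + 1) and log2(FPKM + 0.1) (0.085 and 0.094, adjusted p = 0.296 and 0.298). Nor did Mnat1 pass with uridine without RANKL replicate 2 or 3 or RANKL + UD replicate 2 or 3 (adjusted p from 0.05002 to 0.147), which left 1 gene lower, and with limma on log2(FPKM + 1) 0 genes were lower, both adjusted and at an unadjusted p under 0.05. With total counts alone Mnat1 was at -0.13 with uridine (adjusted p = 0.179). Ccnf, which encodes an F-box protein of the cyclin family, fell by 0.28 with RANKL (adjusted p = 0.00751) and rose by 0.66 with uridine (adjusted p = 2.29e-06). Cks1b, a small CDK-binding subunit, was at -0.37 with RANKL (adjusted p = 2.73e-05) and 0.50 with uridine (adjusted p = 1.98e-06), and its relative Cks2 at 0.06 (adjusted p = 0.657) and 0.54 (adjusted p = 0.000275). Cdk2, the partner of E- and A-type cyclins, was outside the naming rule and was chosen after its values were seen. It went from 12.8 ± 0.828 FPKM in control to 8.70 ± 0.195 with RANKL and 10.5 ± 0.427 after RANKL + UD (SD, n = 3), and it was lower with RANKL (log2 fold change -0.47, adjusted p = 1.22e-06) and higher with uridine than with RANKL (0.18, adjusted p = 0.0265). The rise of Cdk2 did not pass without RANKL replicate 2 (adjusted p = 0.0511), without RANKL replicate 3 (adjusted p = 0.0714), without RANKL + UD replicate 2 (adjusted p = 0.118) or with no filter on low values (adjusted p = 0.0531). Ccna1 and Ccnb3, the cyclins of germ cells, had 0 reads in all 9 libraries.

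CDK inhibitors restrain these kinases, and 5 of 8 were tested. With RANKL, 4 fell, beside 30.2% of all tested genes, and Cdkn1b, which encodes p27, rose by 0.20 (adjusted p = 0.0271). Cdkn2c passed as higher in RANKL + UD against RANKL, beside 18.6% of all tested genes, and Cdkn1b passed as lower only without control replicate 3 (-0.14, adjusted p = 0.0403). Cdkn1b was named after its value was seen, and its rise with RANKL did not pass with total counts as the only scaling (0.11, adjusted p = 0.206), without control replicate 3 (adjusted p = 0.181), without RANKL replicate 1 (adjusted p = 0.0859) or without RANKL replicate 2 (adjusted p = 0.0929). Nor did that rise pass with limma on log2(FPKM + 1) or log2(FPKM + 0.1) (adjusted p = 0.320 and 0.336). Cdkn2d and Cdkn2c, which encode p19 and p18, inhibitors of Cdk4 and Cdk6, had log2 fold changes with RANKL of -1.23 (SE 0.11, adjusted p = 6.90e-09) and -0.92 (SE 0.091, adjusted p = 1.84e-08). With uridine Cdkn2c rose by 0.69 over RANKL (SE 0.092, adjusted p = 4.29e-06), and Cdkn2d stood at 0.12 (adjusted p = 0.467). Cdkn1a, which encodes p21, was at 56.8 ± 4.55 FPKM in control, 41.9 ± 1.62 with RANKL and 42.8 ± 1.57 after RANKL + UD (SD, n = 3), lower with RANKL (log2 fold change -0.35, adjusted p = 2.27e-05) and at -0.05 with uridine (adjusted p = 0.513). Cdkn3, a phosphatase that acts on CDKs, was at -0.50 with RANKL (adjusted p = 0.00215) and -0.08 with uridine (adjusted p = 0.672).

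The phosphorylation switch of Cdk1 and Cdk2 is set by the kinases Wee1 and Pkmyt1, which restrain them, and by the Cdc25 phosphatases, which release them. All 5 genes fell with RANKL and 4 of the 5 rose with uridine over RANKL, beside 30.2% and 18.6% of all tested genes, with Pkmyt1 at 0.14 (adjusted p = 0.492). The fall of Pkmyt1 (-0.40, adjusted p = 0.0199) did not pass without control replicate 3, RANKL replicate 2 or RANKL replicate 3 (adjusted p = 0.077, 0.0562 and 0.0937), and the rise of Wee1 (0.25, adjusted p = 0.0304), named after its value was seen, did not pass without RANKL replicate 1 or 2 or without any 1 of the RANKL + UD libraries (adjusted p from 0.0531 to 0.0977). Cdc25c went from 4.01 ± 0.451 FPKM to 1.94 ± 0.272 and 3.12 ± 0.0608 in the 3 groups in turn (SD, n = 3), a log2 fold change of -0.96 with RANKL (adjusted p = 7.66e-07) and 0.60 with uridine (adjusted p = 0.000573). Cdc25b was at -0.78 (adjusted p = 1.59e-08) and 0.34 (adjusted p = 0.00149), and Cdc25a at -0.36 (adjusted p = 0.00272) and 0.68 (adjusted p = 8.36e-06). Restraining and releasing enzymes moved in the same direction with RANKL.

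Of 13 pocket proteins and E2F factors, edgeR called 9 lower and 0 higher with RANKL, beside 30.2% and 27.3% of all tested genes, and in RANKL + UD against RANKL 8 rose and Tfdp2 fell, beside 18.6% and 20.2%. None was higher with RANKL at an unadjusted p under 0.05, with DESeq2 or with limma. Tfdp2, a partner of E2F factors named after its value was seen (-0.28, adjusted p = 0.00927), did not pass with total counts as the only scaling (adjusted p = 0.0619) or without RANKL replicate 2 (adjusted p = 0.0868). Its fall also did not pass with limma on log2(FPKM + 1) and log2(FPKM + 0.1) (adjusted p = 0.104 and 0.0890). E2f2, an activating E2F, had the largest change, from 8.28 ± 1.27 FPKM in control to 1.61 ± 0.211 with RANKL and, with uridine added, 2.37 ± 0.262 (SD, n = 3). Its log2 fold change was -2.28 with RANKL (SE 0.13, adjusted p = 1.77e-12) and 0.47 with uridine (SE 0.14, adjusted p = 0.0101), and the rise did not pass without RANKL + UD replicate 2 (0.39, adjusted p = 0.0586). The repressors E2f7 and E2f8, themselves made in S phase, were at -1.15 (adjusted p = 4.16e-07) and -1.35 (adjusted p = 1.85e-10) with RANKL, and at 1.00 (adjusted p = 8.39e-06) and 0.93 (adjusted p = 3.26e-07) with uridine. Rbl1, the pocket protein p107, was at -0.80 (adjusted p = 4.77e-11) and 0.54 (adjusted p = 1.19e-07).

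Of the genes that direct cyclin destruction, 6 of 9 were lower with RANKL, beside 30.2% of all tested genes, and 5 were higher and 1 lower in RANKL + UD against RANKL, beside 18.6% and 20.2%. Skp2, which targets cyclin E and the inhibitor p27, was at -0.60 with RANKL (adjusted p = 9.51e-07) and 0.91 with uridine (adjusted p = 7.62e-09), and stood above control with RANKL + UD (0.31, adjusted p = 0.00124). Fbxo5, which inhibits the anaphase-promoting complex, was at -0.95 (adjusted p = 4.43e-09) and 0.48 (adjusted p = 0.000159). Cdc20 and Ube2c, which act with that complex on B-type cyclins, were at -0.60 (adjusted p = 2.66e-07) and -0.53 (adjusted p = 2.70e-06) with RANKL and at 0.49 (adjusted p = 1.12e-05) and 0.54 (adjusted p = 6.69e-06) with uridine. The gene that fell with uridine was Fbxo31, an F-box protein (-0.54, adjusted p = 0.00552), named after its value was seen.

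Transcription factors of the G2 and M phases gave 3 lower of 6 tested with RANKL and 3 higher with uridine, beside 30.2% and 18.6% of all tested genes. Foxm1, which activates Ccnb1 and its neighbours in the program, went from 18.6 ± 0.779 FPKM in control to 10.3 ± 0.986 with RANKL and 13.8 ± 0.0451 after RANKL + UD (SD, n = 3), a log2 fold change of -0.76 (adjusted p = 1.30e-09) and then 0.34 (adjusted p = 0.000264). Mybl2, the B-Myb factor, was at 6.78 ± 0.668, 7.01 ± 0.415 and 14.5 ± 0.240 FPKM in the same order (SD, n = 3). It differed by 0.14 with RANKL (adjusted p = 0.153), which passed without control replicate 3 (0.20, adjusted p = 0.0443), and by 0.96 with uridine over RANKL (adjusted p = 4.61e-09). Lin9 and Lin54, subunits of the complex that binds the CHR, were at -0.55 (adjusted p = 3.31e-05) and -0.50 (adjusted p = 2.71e-06) with RANKL, and at 0.28 (adjusted p = 0.0235) and 0.12 (adjusted p = 0.175) with uridine. The rise of Lin9 did not pass without RANKL replicate 1 or 2 or without RANKL + UD replicate 2 or 3 (adjusted p from 0.0532 to 0.109), and Lin37 passed as lower without RANKL replicate 1 (-0.43, adjusted p = 0.0387). Lin37 was named after its value was seen. Lin54 passed as higher with total counts as the only scaling (0.21, adjusted p = 0.0215) and with limma on log2(FPKM + 1) and log2(FPKM + 0.1) (0.18 and 0.21, adjusted p = 0.0167 and 0.0142).

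Proliferation markers, which are genes of replication and mitosis used to mark dividing cells, moved together. With RANKL, 13 of 14 were lower, beside 30.2% of all tested genes, and Bub1, named after its value was seen, was higher (0.12, adjusted p = 0.0324). All 14 were higher in RANKL + UD against RANKL, beside 18.6% of all tested genes, with a median log2 fold change of 0.59. With RANKL, Bub1 did not pass with total counts as the only scaling (0.03, adjusted p = 0.58), nor without control replicate 1 or 2 or RANKL replicate 1 or 2 (adjusted p from 0.0651 to 0.1). It also did not pass with no filter on low values (adjusted p = 0.0620) or with limma on log2(FPKM + 1) and log2(FPKM + 0.1) (adjusted p = 0.533 and 0.520). Mki67, which encodes the Ki-67 antigen, went from 106 ± 6.94 FPKM in control to 48.5 ± 5.34 with RANKL and 84.1 ± 1.69 after RANKL + UD (SD, n = 3). Its log2 fold change was -1.03 with RANKL (adjusted p = 1.03e-11) and 0.71 with uridine (adjusted p = 2.41e-08). The mitotic kinase Aurkb was at -1.26 (adjusted p = 1.51e-11) and 0.80 (adjusted p = 1.23e-07), the spindle motor Kif11 at -1.06 (adjusted p = 1.98e-13) and 0.59 (adjusted p = 1.83e-08), and the checkpoint kinase Bub1b at -0.96 (adjusted p = 1.53e-13) and 0.44 (adjusted p = 1.94e-07). Against control, RANKL + UD left 7 of the 14 lower and 2 higher, beside 27.3% and 26.7% of all tested genes. Without control replicate 3 the number higher was 4, since Aurka (0.22, adjusted p = 0.0312) and Mcm2 (0.16, adjusted p = 0.0295), both named after their values were seen, also passed.

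Directions were mixed among cyclins and CDKs with roles in transcription or outside the cycle. Of 24 tested, 7 were higher and 9 lower with RANKL, 29.2% and 37.5%, close to the 27.3% and 30.2% of all tested genes. In RANKL + UD against RANKL 3 were higher and 10 lower, 12.5% and 41.7% beside 18.6% and 20.2%, and 5 were higher with total counts as the only scaling. The median log2 fold changes were -0.05 and -0.12. Ccng2, a cyclin linked to cell cycle exit, was at 13.4 ± 1.21 FPKM in control, 11.6 ± 0.359 with RANKL and 5.59 ± 0.324 after RANKL + UD (SD, n = 3), and fell by 1.14 on the log2 scale with uridine (adjusted p = 2.71e-10). Cdk18 rose by 0.76 with RANKL (adjusted p = 6.32e-07) and fell by 0.77 with uridine (adjusted p = 1.62e-06). Cdk14 was lower in both steps, at -0.79 (adjusted p = 1.49e-11) and -0.22 (adjusted p = 0.00206), the second of which was lost with limma on log2(FPKM + 1) (-0.11, adjusted p = 0.0963). Cdk20 was at -0.82 with RANKL (adjusted p = 0.000969) and -0.36 with uridine (adjusted p = 0.184).

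**Figure D4:**
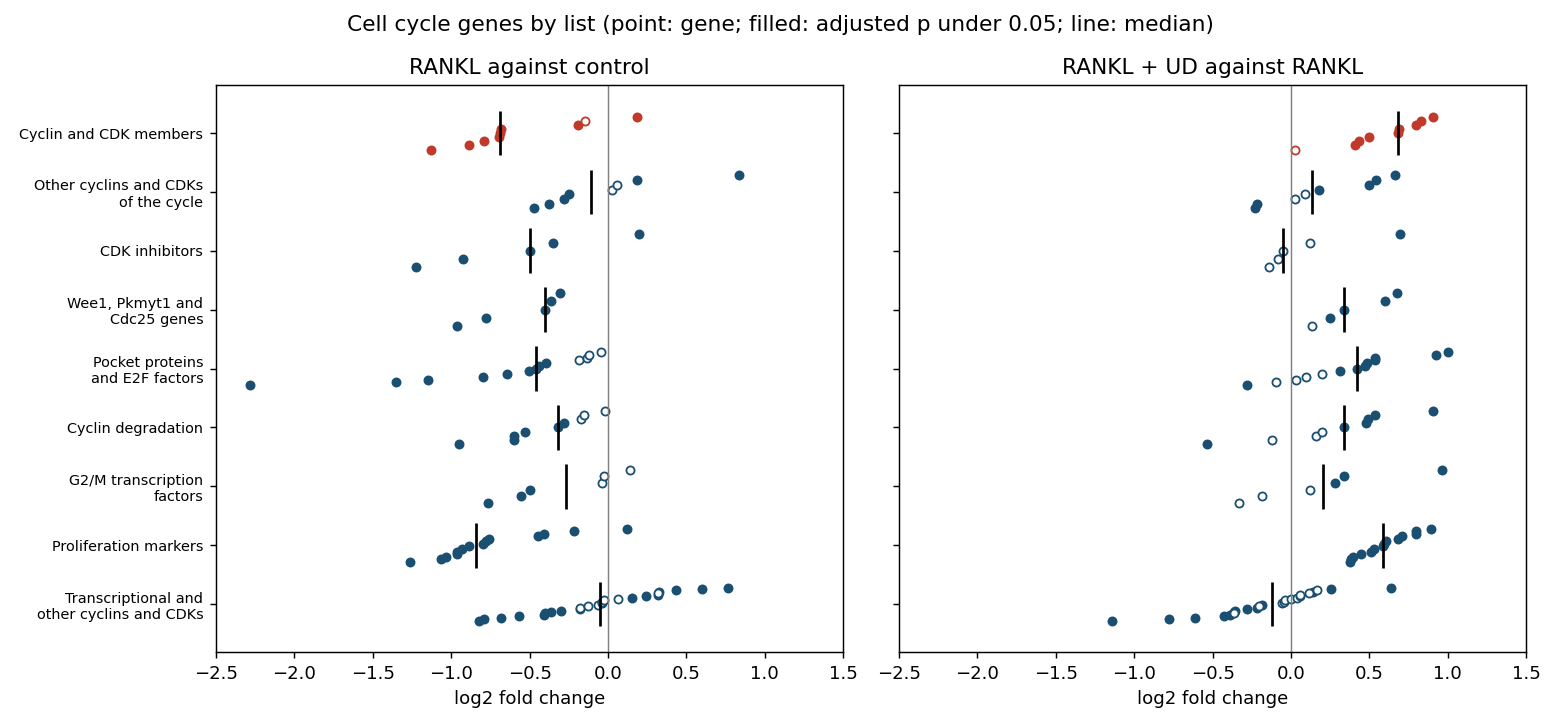
Log2 fold change of every tested gene in the member list and the 8 other lists, with RANKL against control on the left and RANKL + UD against RANKL on the right, filled points at an adjusted p under 0.05 and a line at each list's median. The medians of the members are -0.69 and 0.68, those of the proliferation markers -0.84 and 0.59, and those of the transcriptional and other cyclins and CDKs -0.05 and -0.12.

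In the wider set of genes that the table annotates to the KEGG cell cycle pathway, with the members left out, 118 of 243 were tested. Of these, 26 were higher and 49 lower with RANKL, 22.0% and 41.5%, beside 27.3% and 30.2% of all tested genes. In RANKL + UD against RANKL 49 were higher and 14 lower, 41.5% and 11.9%, beside 18.6% and 20.2%. The number higher with RANKL was 16 with total counts as the only scaling and 16 and 14 with limma on log2(FPKM + 1) and log2(FPKM + 0.1), and the number lower with uridine was 9, 8 and 8 under the same settings. No called gene of any of these lists changed direction under the 17 alternatives of scaling, tool, filter and libraries.

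For each member the 3 genes most alike were found by Pearson's correlation of log2(FPKM + 1) over the 9 libraries, which are 3 groups of 3 and not 9 independent conditions, so the coefficients are a description only. Ccna2 was closest to Txnip (r = 0.997), Acsl5 (r = 0.995) and Jpt1 (r = 0.993). Txnip, which encodes a thioredoxin-binding protein, had 339.1 ± 9.09 FPKM in control, 39.8 ± 1.41 with RANKL and 201 ± 4.60 after RANKL + UD (SD, n = 3), the same order of groups over a far wider range. Ccnb1 was closest to Eri1, Rfc1 and H2az1 (r = 0.994, 0.994 and 0.993), and Cdk1 to Hus1, Nup107 and Rfc1 (0.993, 0.992 and 0.990). Ccnb2 was closest to Slx4, Acadl and Stmn1 (0.988, 0.987 and 0.986). Ccne1 was closest to Pola2, Fasn and Phka1 (0.983, 0.983 and 0.976), and Ccne2 to Rdx, Cse1l and Nudt5 (0.988, 0.986 and 0.986). Ccnd1 was closest to Pnisr, Fubp1 and Cdc37l1 (0.991, 0.990 and 0.990), and Ccnd3 to Dyrk3, Creg1 and Tapbp (0.992, 0.989 and 0.989). Cdk4 had the fewest close genes, with Rtn4ip1, Oat and Gstz1 at 0.957, 0.952 and 0.951 and 78 genes above 0.9, against 974 for Ccnd3 at the other end.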

How the data were processed

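RNA of 9 RAW264.7 libraries was measured, with 3 labelled replicate biosamples in each of the control, RANKL and RANKL + UD groups. Per the labels, libraries were made by poly(A) selection with a dUTP strand-specific method, and the submitters' processing notes name the build mm10. The aligner, the counting tool and its strand setting are not given in the sources used here. Gene coordinates in the table matched the GRCm38 annotation exactly for 1472 of 52073 shared genes, so chromosomes are taken from the table and promoter positions from RefSeq (GRCm38.p6) alone. The authors deposited raw read counts per gene, without normalization, for 56691 genes. The authors also deposited FPKM values made from those counts, the exonic lengths and the library totals, which recomputation matched within 0.01 for every gene.

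Counts were tested with edgeR 4.0.16 in R 4.3.3 (TMM scaling, quasi-likelihood test, all 9 libraries in 1 fit, Benjamini-Hochberg adjustment over 11995 genes with at least 1 FPKM in at least 3 libraries). TMM factors were 0.959 to 0.962 for RANKL and 1.01 to 1.03 for the other groups. The members, gene lists and promoter words were chosen with earlier results of these data known. Besides the members, up to 4 genes per list with the largest absolute log2 fold change in RANKL against control or RANKL + UD against RANKL were named, and exceptions are marked. Alternatives were RLE size factors, total counts without scaling, DESeq2 1.42.0, no filter, limma 3.58.1 on log2(FPKM + 1) and log2(FPKM + 0.1), only the 6 libraries compared, a replicate block, and each library left out. Within groups, chi-square over degrees of freedom was 2.83 to 8.22 between libraries, above sampling noise, so none were merged. Mitochondrial genes took 3.67% to 4.71% of counts. The main edgeR fit, the replicate block, DESeq2 and limma on log2(FPKM + 1) were tested on simulated counts with changes planted in RANKL + UD. The other alternatives were not. Python 3.11.15 (pandas 2.3.3, matplotlib 3.10.9) was used for tables and figures.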

Additional observations from a re-analysis of the deposited data

How the results depend on the processing

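Of 459 log2 fold changes of single members recomputed under the alternatives, 447 kept their direction and their side of the threshold, as did 99 of 102 counts of members within 1.5 times. The single member called higher with RANKL, Cdk4, was not called with total counts without further scaling, with limma on log2(FPKM + 1) or with limma on log2(FPKM + 0.1), where the count was 0 and its log2 fold changes were 0.10, 0.095 and 0.097 (adjusted p = 0.117, 0.181 and 0.188). Ccne2 passed as lower with RANKL under the same 3 settings (-0.23, -0.21 and -0.23, adjusted p = 0.0174, 0.0397 and 0.0443). Over all genes, those higher in RANKL + UD against RANKL numbered 2233 and became 3350 with total counts, and those lower numbered 2418 and became 1539 and 1488 with limma on log2(FPKM + 1) and log2(FPKM + 0.1). Values near 0 changed sign without being called: Cdk4 in RANKL + UD against RANKL without RANKL replicate 1 (-0.017, adjusted p = 0.849; range with any 1 library left out -0.017 to 0.078), and Ccnb1 in RANKL + UD against control without control replicate 2 (-0.031, adjusted p = 0.698) or replicate 3 (-0.0046, adjusted p = 0.954; range -0.031 to 0.052). The cause of these changes was not tested.

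With each library left out in turn, 7 to 8 members were lower with RANKL and 8 were higher in RANKL + UD against RANKL, and 3 to 4 were higher and 3 lower in RANKL + UD against control. As shares of read counts in place of FPKM, which ignore gene length, Ccnd1, Ccnd2 and Ccnd3 made up 90.8%, 0.530% and 8.71% of D-type cyclins in control, 94.7%, 0.590% and 4.73% with RANKL, and 94.7%, 0.478% and 4.78% with RANKL + UD.

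The replicate numbers were not taken as pairs, since deviations of same-numbered libraries correlated at -0.019 to 0.098 and not every library correlated best with its own number. With the replicate block, 7 members were lower and 1 higher with RANKL, and 8 were higher in RANKL + UD against RANKL, and the genes called over the whole table were 3346 higher and 3694 lower, and 2347 higher and 2518 lower. Depth limits Ccnd2 most, with 31 to 56 reads per library.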
